A study of Mus musculus with 6 samples.

Results

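The genes described here are 33 genes of mononuclear phagocytes, the macrophages, monocytes and dendritic cells, outside the complement and MHC class II genes. They were taken by symbol from a list of such genes, and all 33 were found among the 57127 genes of the count table. Of the 33, 31 were abundant enough to be tested, among 19691 genes tested in all. RNA of the whole epididymis was compared between adult WT and adult Ocln-KO mice, both labelled C57BL/6, with 3 libraries per genotype. The Ocln-KO mice lack occludin, a membrane protein of tight junctions; they were bred from heterozygous parents, and the knockout is not limited to the epididymis or to a cell type. The methods speak both of RNA extracted separately from pairs of WT and Ocln-KO mice and of pooled RNA. Here n therefore counts libraries, and p-values measure the spread between libraries. The libraries held between 30646424 and 38870780 counts, so that 1 count was worth between 0.0267 and 0.0314 CPM (counts scaled to library size with edgeR's TMM factors).

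Macrophages and dendritic cells lie within and around the epididymal epithelium, where they sample the duct, take up dying cells and keep the immune system tolerant of sperm. Their development depends on the growth factor receptor CSF1R and on the transcription factor PU.1, encoded by Spi1. They recognise antibody-coated, microbial and dying material with surface receptors, several of which signal through adaptors with an activation motif (ITAM), and destroy it with lysosomal proteases, pore-forming proteins and the oxidant-producing NADPH oxidase.

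Ocln itself, at chr13:100496504-100552718 of GRCm38.p6, served as a check of the labels. Its level was 85.8, 78.7 and 91.7 CPM in WT replicates 1, 2 and 3, and 15.1, 15.3 and 14.9 CPM in Ocln-KO replicates 1, 2 and 3. Every Ocln-KO library was far below every WT library, and the log2 fold change (Ocln-KO over WT) was -2.50 (SE 0.09, Benjamini-Hochberg-adjusted p = 0.000108 in edgeR's quasi-likelihood test). The neuronal gene Snap25 lay between 0 and 0.0627 CPM and the epididymal secretory gene Crisp1 between 4436 and 16754 CPM, although prefrontal cortex is the tissue named by one of the protocols in the records.

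The Ocln-KO libraries were not alike. On the first principal component of log2 CPM, which held 51.8% of the variance, WT replicates 1, 2 and 3 lay at -33.0, -27.5 and -42.7. The Ocln-KO replicates lay at 15.7, 25.2 and 62.4, with replicate 3 apart from the other 2. Results are therefore also given without Ocln-KO replicate 3.

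Summed over the mononuclear phagocyte genes, RNA was more abundant in every Ocln-KO library than in any WT library. The summed CPM of the 33 genes was 663, 641 and 609 in the WT libraries and 787, 932 and 1279 in the Ocln-KO libraries, which were all above WT but differed widely from each other. The ratio of the mean sums was 1.57 with all libraries and 1.35 without Ocln-KO replicate 3. With all libraries it was 1.60 without Lcp1, which alone made 30.7% of the summed CPM. In bulk tissue, more phagocytes, more RNA of these genes per phagocyte and RNA from other cells that express them cannot be told apart.

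Of the 31 members tested, 8 were higher in Ocln-KO at a Benjamini-Hochberg-adjusted p under 0.05 in edgeR's quasi-likelihood test, and none was lower. Among all tested genes 3.91% were higher and 5.04% lower by this rule. The 8 were Ptprc, Siglec1, Ctss, Mpeg1, Lcp1, Trem2, Cybb and Ncf1. At an unadjusted p under 0.05, 20 members were higher and 1, Cd163, was lower; below, a gene passed where edgeR called it, unless another tool is named. DESeq2 called the same 8 and 7 more, Spi1, Cx3cr1, Itgax, Fcgr1, Clec7a, Cd68 and Coro1a, 15 in all, where it called 8.15% of all tested genes higher. Limma-voom called 5, without Trem2, Cybb and Ncf1, and 3.70% of all tested genes. A change over 2-fold, the threshold of the study's methods, was reached by 6 of the 8, against 1.49% of all genes tested. The fold change was above 0 on the log2 scale in 28 of the 31 members, with a median of 0.77, while the median over all tested genes was 0.01. Every Ocln-KO library was above every WT library in 16 members, against 16.9% of all tested genes, and below in 1 member, against 19.4%.

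**Figure D1:**
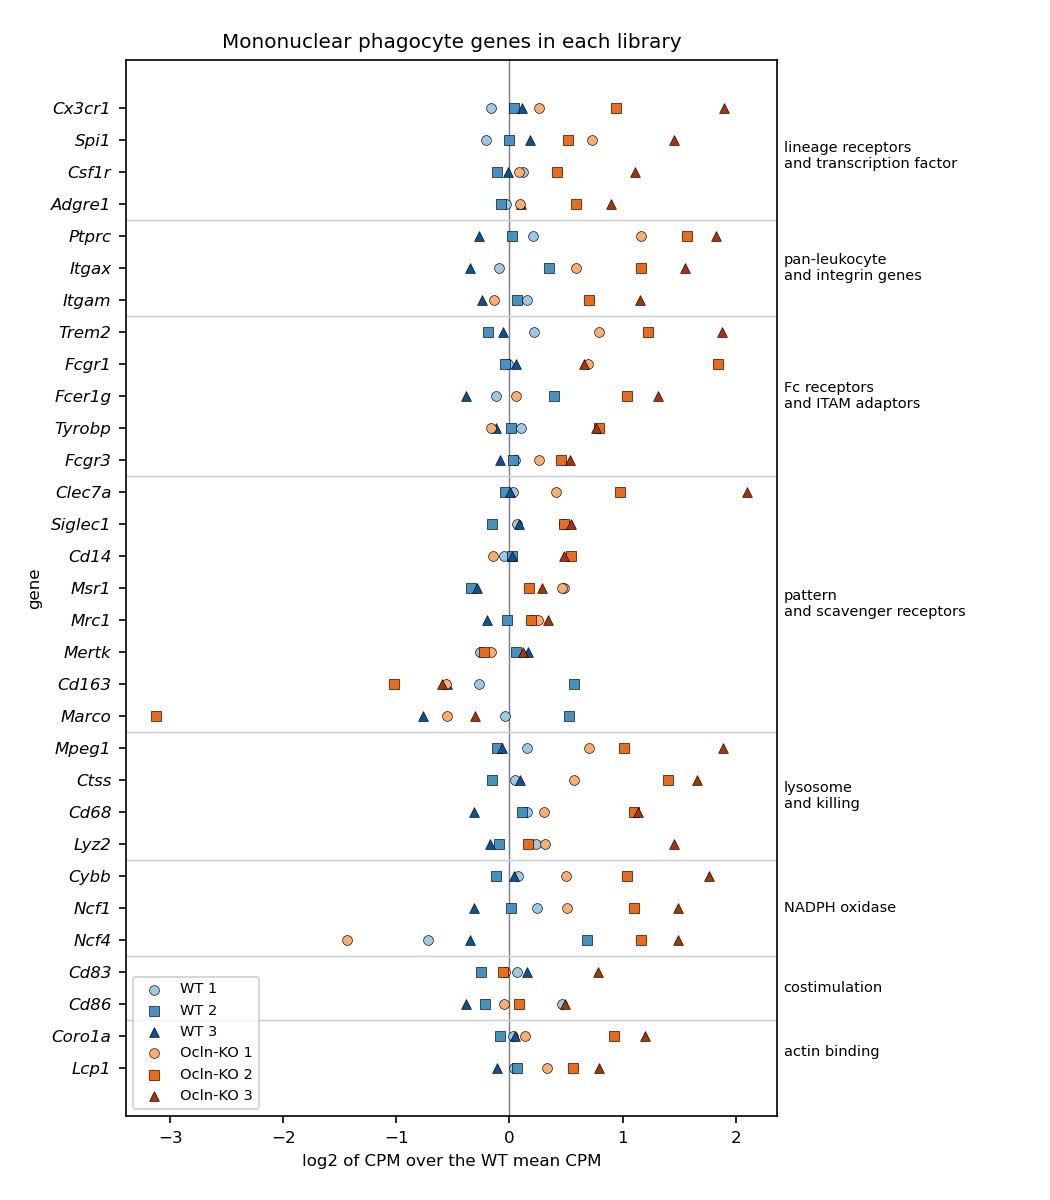
Each of the 31 tested members (vertical axis, grouped by role) in each library, as the log2 of its CPM over the mean CPM of the 3 WT libraries (horizontal axis); blue symbols are WT and orange symbols Ocln-KO libraries. The WT libraries lie close to 0 for most genes, and Ocln-KO replicate 3 is the highest of the 6 libraries in 24 of the 31 genes.

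Among the Ocln-KO libraries the members moved together. Replicate 3 was the highest of the 6 libraries in 24 of the 31 members and replicate 2 in 3, while replicate 1 was the highest in none. The median over the members of the log2 ratio to the WT mean was 0.26 in Ocln-KO replicate 1, 0.70 in replicate 2 and 1.14 in replicate 3. In 13 members replicate 1 was at or under the highest WT library. The plot of the members by library shows this spread, which widened the error of most members.

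The number of calls depended on the design and on which libraries were compared. With the replicate number as a block, 0 members passed, and 0.0508% of all tested genes were higher. Without Ocln-KO replicate 3, 7 members and 3.67% of all tested genes were higher by edgeR's quasi-likelihood test; Trem2 and Ncf1 no longer passed and Fcgr1 did. Without Ocln-KO replicate 1, 18 members passed, and 3.84% of all tested genes were higher. Without WT replicate 2 or Ocln-KO replicate 2 only Ptprc passed, and without WT replicate 1 or WT replicate 3 none did by this test, although 15 and 16 members were higher at an unadjusted p under 0.05. The share of all tested genes called higher also fell in these comparisons, to 0.0197% without WT replicate 1, 0.419% without WT replicate 2, 0.0789% without WT replicate 3 and 1.08% without Ocln-KO replicate 2. The median log2 fold change of the members, 0.77 with all libraries, reached its lowest value, 0.45, when Ocln-KO replicate 3 was left out, and its highest, 0.95, when replicate 1 was.

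**Figure D2:**
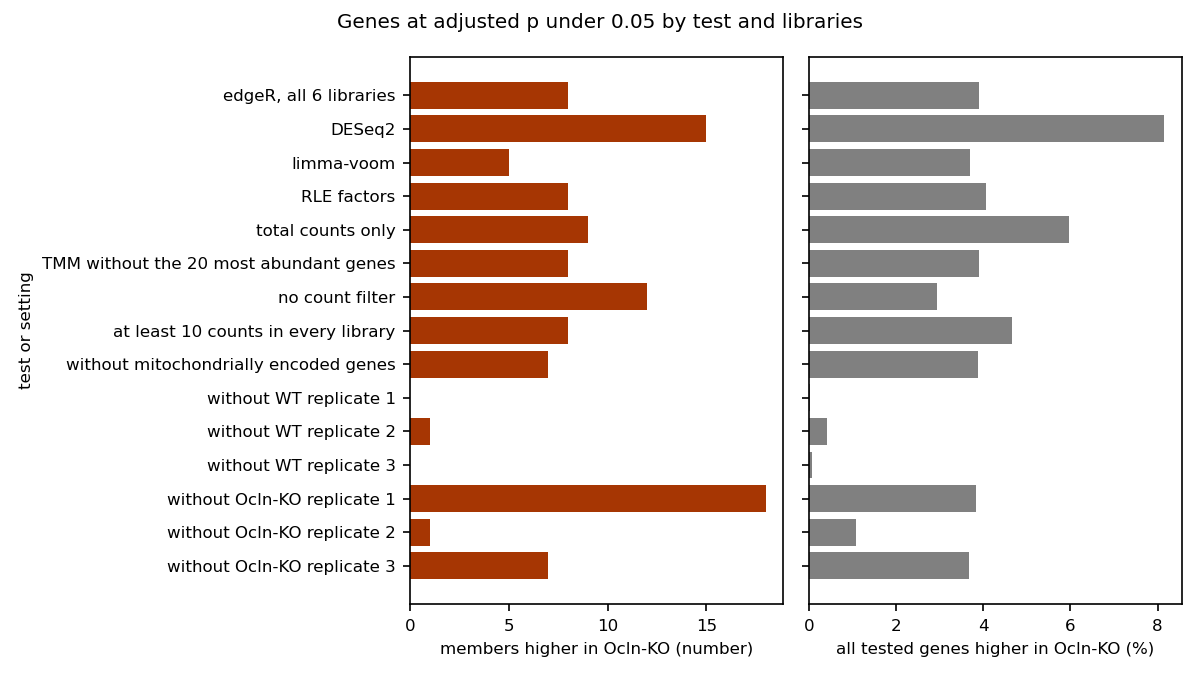
Number of members (left) and percent of all tested genes (right) higher in Ocln-KO at a Benjamini-Hochberg-adjusted p under 0.05, for edgeR's quasi-likelihood test with all 6 libraries, for other tests, scalings and count filters, and with each library left out. The 8 members called with all libraries become 15 with DESeq2, 18 without Ocln-KO replicate 1 and 0 without WT replicate 1 or WT replicate 3, and the share of all genes falls in the comparisons with few calls.

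Since PU.1 is a common regulator of these genes, their promoters were searched for letters that PU.1 binds. RefSeq windows of GRCm38.p6, from 250 bases before to 50 bases after a start, were at hand for 23 of the 33 members. The PU.1 letters GAGGAAGT, on either strand, were in the window of 1 member, Ctss, and in 3.20% of all 32851 windows (3.69% of genes with a window). A shorter form, AGGAAGT, which the longer one contains, was in the windows of 5 members, Ctss, Fcgr1, Lyz2, Mrc1 and Ptprc, and in 9.35% of all windows (10.7% of genes). A composite of GGAA and GAAA with any 2 bases between them, bound by PU.1 together with an interferon regulatory factor and sharing GGAA with the others, was in the windows of 3 members, Cd68, Clec7a and Cybb, and in 2.72% of all windows (3.16% of genes). The last 2 searches were chosen after the values had been seen. Of these 8 members, Ctss, Ptprc and Cybb were called higher and the other 5 were not. The stretches below show the match in each of these 3 called members and in 3 that were not called, with the matched letters in capitals, read 5′ to 3′ on the strand of the gene.
Ctss, chr3:95526759-95526791, plus strand, ending just inside the transcript: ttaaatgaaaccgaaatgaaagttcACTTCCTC
Ptprc, chr1:138175387-138175443, minus strand: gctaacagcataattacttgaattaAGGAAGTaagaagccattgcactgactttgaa
Cybb, chrX:9469312-9469346, minus strand, ending just inside the transcript: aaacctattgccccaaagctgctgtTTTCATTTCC
Clec7a, chr6:129472811-129472870, minus strand: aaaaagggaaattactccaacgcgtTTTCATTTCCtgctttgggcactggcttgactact
Lyz2, chr10:117282341-117282397, minus strand: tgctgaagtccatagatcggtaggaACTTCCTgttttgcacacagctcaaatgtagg
Mrc1, chr2:14229178-14229234, plus strand: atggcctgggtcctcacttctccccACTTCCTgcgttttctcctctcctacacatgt
In all but Ptprc the match lies on the strand opposite to the gene, so the capitals are its reverse complement. Ptprc holds a further match on the opposite strand. A match describes these letters only and says nothing of binding.

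The lineage receptors and the transcription factor of the group were higher on average in Ocln-KO, but none of the 4 passed in edgeR with all libraries. DESeq2 called Spi1 and Cx3cr1, limma-voom called neither, and edgeR with no count filter called Cx3cr1. Without Ocln-KO replicate 1, edgeR called Csf1r at 0.81, Adgre1 at 0.76 and Cx3cr1 at 1.51 on the log2 scale. Csf1r, the receptor for the growth factors CSF1 and IL-34, had 38.1, 32.6 and 34.8 CPM in WT against 37.4, 47.1 and 75.9 in Ocln-KO. Adgre1, which encodes the macrophage surface protein F4/80, had 9.94, 9.63 and 10.9 CPM in WT against 10.9, 15.2 and 19.0 in Ocln-KO. In both genes Ocln-KO replicate 1 lay within the WT range and replicate 3 was the highest. Spi1, encoding PU.1, had 1.71, 1.96 and 2.23 CPM in WT against 3.27, 2.82 and 5.38 in Ocln-KO, so its genotypes did not overlap. In edgeR's quasi-likelihood test (p-values Benjamini-Hochberg-adjusted), the log2 fold changes were 0.60 for Csf1r (SE 0.24, adjusted p = 0.139), 0.56 for Adgre1 (SE 0.21, adjusted p = 0.120) and 0.96 for Spi1 (SE 0.31, adjusted p = 0.0927). Cx3cr1, the fractalkine receptor of monocytes and of many tissue macrophages, had a log2 fold change of 1.19 (SE 0.37, Benjamini-Hochberg-adjusted p = 0.0842 in edgeR's quasi-likelihood test) and also no overlap, with 5.58 to 6.78 CPM in WT against 7.51 to 23.4 in Ocln-KO. Without Ocln-KO replicate 3 the log2 fold changes were 0.26 for Csf1r, 0.36 for Adgre1, 0.63 for Spi1 and 0.64 for Cx3cr1.

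Other genes of the CSF receptors and ligands gave no call in edgeR, except Csf1 with total counts. Of 7 listed, 6 were tested and 5 were above 0, with a median log2 fold change of 0.58; edgeR called 0, with 3 higher at an unadjusted p under 0.05, limma-voom called 0 and DESeq2 called 1, Csf3. Csf1, the most abundant of them in CPM and the main ligand of CSF1R, had 21.5, 21.9 and 20.6 CPM in WT against 25.1, 28.7 and 25.5 in Ocln-KO, with no overlap.

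Myeloid transcription factors gave calls in both directions. Of 10 listed and tested, 4 were higher and 1 was lower, with a median log2 fold change of 0.60. Runx1, a regulator of blood cell development, had 6.30, 6.03 and 3.96 CPM in WT against 13.3, 16.1 and 27.4 in Ocln-KO. This was a log2 fold change of 1.80 (SE 0.30, Benjamini-Hochberg-adjusted p = 0.0213 in edgeR's quasi-likelihood test). The other higher genes were Bhlhe41 at 0.98, Maf at 0.62 and Irf8, a factor of monocyte and dendritic cell development, at 0.48 on the log2 scale. Bhlhe41 was the most abundant in CPM, with 42.6, 39.6 and 40.7 CPM in WT against 54.9, 73.3 and 115 in Ocln-KO. Ikzf1, which encodes the lymphoid and myeloid factor Ikaros, went the other way, with 29.5, 27.8 and 36.1 CPM in WT against 15.98, 19.3 and 11.03 in Ocln-KO and a log2 fold change of -1.01 (SE 0.21, Benjamini-Hochberg-adjusted p = 0.0307 in edgeR's quasi-likelihood test). Without Ocln-KO replicate 3, Runx1 and Bhlhe41 remained higher and Ikzf1 lower, while Maf and Irf8 did not pass. With all libraries limma-voom called 3 higher, without Bhlhe41, DESeq2 called 7 higher, edgeR with no count filter did not call Irf8, and Ikzf1 was lower in each.

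Ptprc gave the clearest difference of the pan-leukocyte and integrin genes and of all 33 members. It encodes CD45, a phosphatase on the surface of all nucleated blood cells, and lies at chr1:138062859-138175756. Its level was 15.1, 13.3 and 10.8 CPM in WT against 29.2, 38.6 and 46.3 in Ocln-KO. Every Ocln-KO library lay well above the WT range, and the log2 fold change was 1.54 (SE 0.19, Benjamini-Hochberg-adjusted p = 0.0110 in edgeR's quasi-likelihood test), the highest of the members. It was 1.38 without Ocln-KO replicate 3 and stayed between 1.38 and 1.71 with any library left out. In those comparisons Ptprc passed in 4 of 6; in edgeR's quasi-likelihood test its Benjamini-Hochberg-adjusted p was 0.0610 without WT replicate 1 and 0.0643 without WT replicate 3.

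With all libraries neither integrin gene passed in edgeR or limma-voom. Itgax was called by DESeq2, and by edgeR with total counts or no count filter. EdgeR without Ocln-KO replicate 1 called both Itgam and Itgax. Itgam, encoding the CD11b chain of the complement receptor CR3, had 10.6, 9.98 and 8.07 CPM in WT against 8.72, 15.6 and 21.3 in Ocln-KO. Ocln-KO replicate 1 lay inside the WT range, and the log2 fold change was 0.67 (SE 0.30, Benjamini-Hochberg-adjusted p = 0.185 in edgeR's quasi-likelihood test). Itgax, encoding the CD11c chain found on dendritic cells and some macrophages, ranged from 2.15 to 3.48 CPM in WT against 4.11 to 8.04 in Ocln-KO, with a log2 fold change of 1.16 (SE 0.31, Benjamini-Hochberg-adjusted p = 0.0573 in edgeR's quasi-likelihood test). Laptm5, a lysosomal membrane protein of blood cells, was too low to test, with 8, 6 and 40 counts in WT and 5, 4 and 18 counts in Ocln-KO.

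Most leukocyte integrins and surface genes outside the members were also higher on average in Ocln-KO. All 10 listed were tested and 9 were above 0. In 8, every Ocln-KO library was above every WT library, against 16.9% of all tested genes. Among these 8 was Itgb2, the common beta chain of the leukocyte integrins. EdgeR called 0, with 8 higher and 1 lower at an unadjusted p under 0.05, limma-voom called 0, DESeq2 called 7, and edgeR called 4 with total counts and 4 with no count filter. Cd52, the most abundant in CPM, is also a product of the epididymal epithelium and went the other way, with 2604, 2331 and 2709 CPM in WT against 1269, 1629 and 348 in Ocln-KO; it was called lower without Ocln-KO replicate 3, at -0.81. Without Cd52 the summed CPM of the list was 43.7, 41.4 and 33.2 in WT and 56.8, 70.2 and 106 in Ocln-KO, all above WT.

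**Figure D3:**
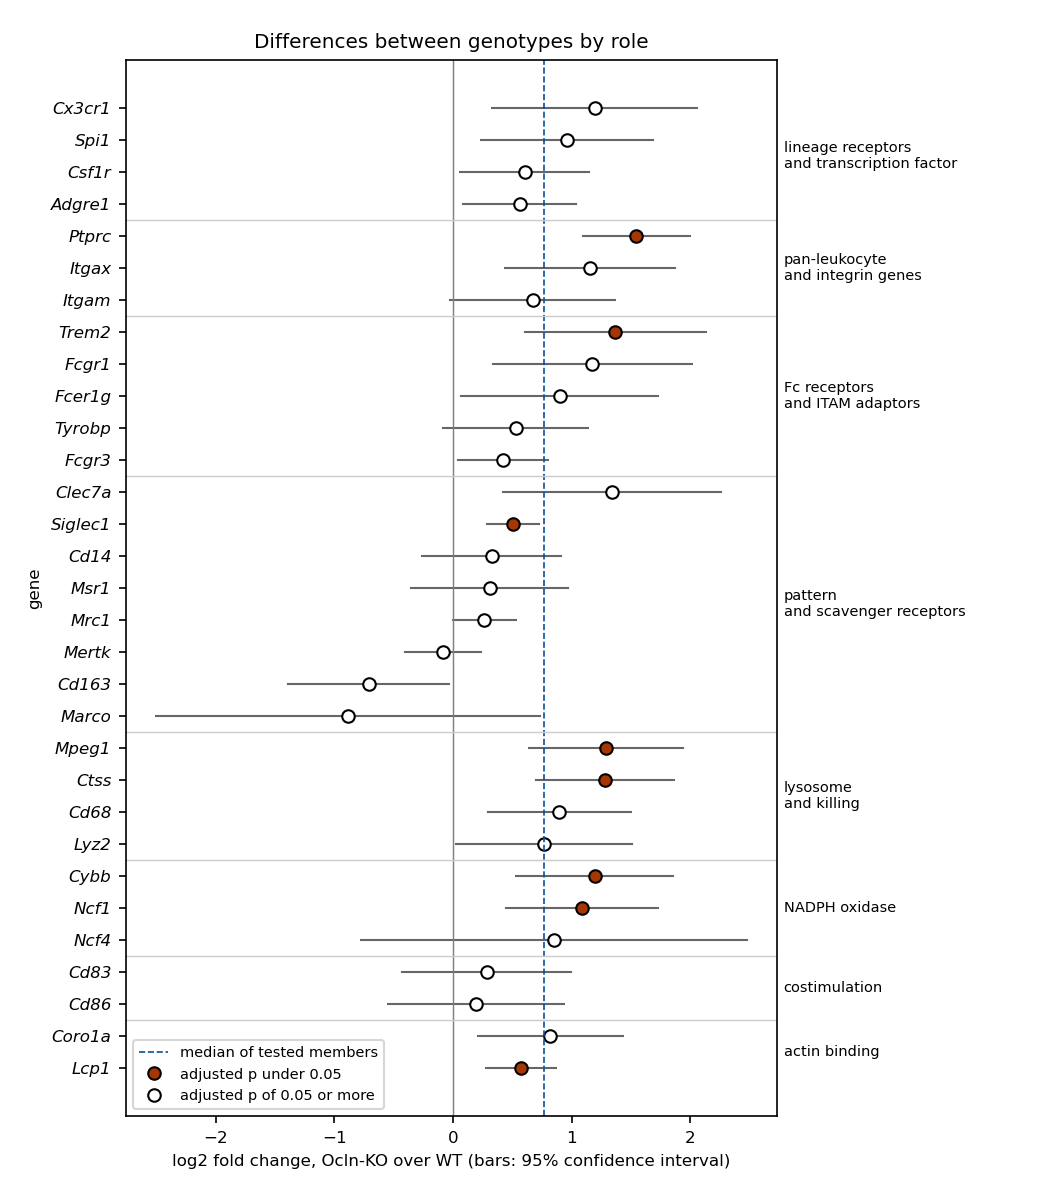
Log2 fold change (Ocln-KO over WT, horizontal axis) of the 31 tested members by role, with 95% confidence intervals as bars; filled circles passed edgeR's quasi-likelihood test (Benjamini-Hochberg-adjusted p under 0.05), open circles did not, and the dashed line is the median of the members, 0.77. The 8 filled circles all lie above 0, and Cd163, Marco and Mertk lie below it.

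Of the Fc receptors and ITAM adaptors, only Trem2 passed in edgeR with all libraries. Trem2, at chr17:48346401-48352276, encodes a lipid-binding receptor of macrophages and microglia that signals through the adaptor TYROBP. It had 2.06, 1.55 and 1.70 CPM in WT against 3.05, 4.14 and 6.51 in Ocln-KO, without overlap. Its log2 fold change was 1.37 (SE 0.33, Benjamini-Hochberg-adjusted p = 0.0442 in edgeR's quasi-likelihood test). Leaving out Ocln-KO replicate 3 gave a log2 fold change of 1.02 and a Benjamini-Hochberg-adjusted p of 0.0678 in edgeR's quasi-likelihood test. The call was also lost with limma-voom and without any other library but Ocln-KO replicate 1. Tyrobp itself, encoding the adaptor DAP12, ranged from 5.57 to 6.46 CPM in WT against 5.39 to 10.4 in Ocln-KO, with Ocln-KO replicate 1 below all WT libraries. Fcer1g, encoding the common gamma chain of activating Fc receptors, ranged from 2.48 to 4.25 CPM in WT against 3.36 to 8.04 in Ocln-KO. The log2 fold changes of the 2 adaptors were 0.53 for Tyrobp (SE 0.26) and 0.90 for Fcer1g (SE 0.36). Neither passed with all libraries, and without Ocln-KO replicate 1 both passed, at 0.78 for Tyrobp and 1.19 for Fcer1g.

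The activating receptors for antibody did not pass in edgeR with all libraries, while DESeq2 called Fcgr1. Fcgr1, the high-affinity receptor for IgG, had 2.003, 1.96 and 2.10 CPM in WT against 3.27, 7.24 and 3.19 in Ocln-KO. Unlike most members it was highest in Ocln-KO replicate 2, and its log2 fold change was 1.17 (SE 0.36, Benjamini-Hochberg-adjusted p = 0.0802 in edgeR's quasi-likelihood test). This became 1.38 with an adjusted p of 0.0450 in the same test without Ocln-KO replicate 3. Without Ocln-KO replicate 2 it was 0.68 and did not pass. Fcgr3, a low-affinity activating IgG receptor, ranged from 5.38 to 5.88 CPM in WT against 6.82 to 8.25 in Ocln-KO, a log2 fold change of 0.42 (SE 0.17) that did not pass. Fcgr2b, the inhibitory IgG receptor, was not among the members and went the other way, with 20.6, 42.0 and 20.6 CPM in WT against 13.1, 9.56 and 18.2 in Ocln-KO. This gave a log2 fold change of -1.02 (SE 0.33, Benjamini-Hochberg-adjusted p = 0.0925 in edgeR's quasi-likelihood test), with no overlap between genotypes. Fcgr2b was called lower by DESeq2, by edgeR with no count filter, and by edgeR without Ocln-KO replicate 3, at -1.29. It passed in that fit alone of the 6 with a library left out, which ranged from -1.29 to -0.60. Fcgr3 and Fcgr2b have nearly the same sequence over their outer domains, and how reads that fit both were counted is not given in the sources used here. The count of Fcgr3 divided by that of Fcgr2b, which needs no scaling, was 0.285, 0.139 and 0.262 in WT and 0.521, 0.816 and 0.452 in Ocln-KO, so the balance of the pair differed in every library; this pair was chosen after its values had been seen.

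Of the other Fc and inhibitory myeloid receptors, 12 of 14 listed were tested, 10 were above 0, 1 was higher and 0 were lower in edgeR, with 6 higher and 1 lower at an unadjusted p under 0.05; limma-voom called 1 higher and 0 lower, and DESeq2 called 4 higher and 1, Fcgr2b, lower. Clec12a, an inhibitory lectin of myeloid cells, was the higher gene, with 3.20, 2.11 and 1.75 CPM in WT against 5.51, 7.97 and 10.8 in Ocln-KO. This gave a log2 fold change of 1.78 (SE 0.33, Benjamini-Hochberg-adjusted p = 0.0251 in edgeR's quasi-likelihood test). Sirpa, the most abundant in CPM, which encodes the receptor for CD47, had 24.7, 22.6 and 20.5 CPM in WT against 30.0, 30.1 and 46.4 in Ocln-KO, without overlap, and was called by DESeq2, and by edgeR only with total counts or no count filter.

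Downstream of the adaptors, the ITAM signalling list held 12 genes, all tested, of which 3 were higher and 1 was lower, with a median log2 fold change of 0.80. Lcp2, encoding the scaffold SLP-76, had 1.76, 2.69 and 1.48 CPM in WT against 3.86, 5.83 and 7.48 in Ocln-KO. Vav1, an exchange factor for Rac, had 3.34, 1.96 and 3.04 CPM in WT against 5.89, 5.43 and 8.55 in Ocln-KO. In both every Ocln-KO library was above WT, and the log2 fold changes were 1.53 for Lcp2 (SE 0.34) and 1.25 for Vav1 (SE 0.29). Card9, an adaptor of lectin receptor signalling, was lower, with 14.8, 14.1 and 21.7 CPM in WT against 8.88, 9.44 and 8.52 in Ocln-KO. This gave a log2 fold change of -0.92 (SE 0.19, Benjamini-Hochberg-adjusted p = 0.0316 in edgeR's quasi-likelihood test). Syk, the kinase that binds ITAMs and the most abundant in CPM, overlapped between genotypes, with 123, 147 and 77.8 CPM in WT against 74.5, 134 and 277 in Ocln-KO. Lcp2 and Card9 still passed without Ocln-KO replicate 3, and Vav1 did not.

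The pattern and scavenger receptors were the most mixed role. With all libraries, of 8 tested, 1 was higher and no other passed, and the median log2 fold change was 0.29. Siglec1, at chr2:131067801-131086778, encodes a sialic acid-binding receptor of tissue macrophages. It had 43.7, 37.5 and 44.2 CPM in WT against 58.5, 58.3 and 61.1 in Ocln-KO. The difference was modest but the Ocln-KO libraries were close to each other, and the log2 fold change was 0.50 (SE 0.09, Benjamini-Hochberg-adjusted p = 0.0257 in edgeR's quasi-likelihood test). It stayed between 0.43 and 0.55 with any library left out and was 0.48 without Ocln-KO replicate 3, where it still passed. Siglec1 did not pass with any WT library or Ocln-KO replicate 2 left out.

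Clec7a, encoding the fungal glucan receptor Dectin-1, had 4.30, 4.10 and 4.22 CPM in WT against 5.61, 8.31 and 18.1 in Ocln-KO. The WT libraries were nearly equal and the Ocln-KO libraries far apart, and the log2 fold change was 1.34 (SE 0.40, Benjamini-Hochberg-adjusted p = 0.0734 in edgeR's quasi-likelihood test). It was 0.73 without Ocln-KO replicate 3. Mrc1, the mannose receptor, ranged from 41.5 to 54.5 CPM in WT against 54.4 to 60.3 in Ocln-KO, a log2 fold change of 0.26 (SE 0.12). Cd14, a co-receptor for lipopolysaccharide, and Msr1, a scavenger receptor for modified lipoproteins, overlapped between genotypes at log2 fold changes of 0.33 (SE 0.25) and 0.31 (SE 0.29). With all libraries none of these 4 passed, while DESeq2, and edgeR with no count filter, called Clec7a. EdgeR also called Clec7a without Ocln-KO replicate 1, at 1.65.

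The 3 members below 0 were all receptors for scavenging or uptake. Cd163, the receptor for haemoglobin bound to haptoglobin, had 13.3, 23.9 and 10.9 CPM in WT against 10.8, 7.90 and 10.6 in Ocln-KO. Every Ocln-KO library was below every WT library, by little in 2 of them, and WT replicate 2 was high. The log2 fold change was -0.71 (SE 0.29, Benjamini-Hochberg-adjusted p = 0.155 in edgeR's quasi-likelihood test), and it was -0.31 without WT replicate 2. Marco, a scavenger receptor for bacteria and particles, had 0.534, 0.791 and 0.323 CPM in WT against 0.374, 0.0627 and 0.444 in Ocln-KO, 2 to 27 counts a library. Its log2 fold change of -0.89 had an SE of 0.70, and the genotypes overlapped. Mertk, a receptor tyrosine kinase for dying cells, had 58.0, 72.1 and 77.8 CPM in WT against 62.0, 59.4 and 75.2 in Ocln-KO. The genotypes overlapped, and the log2 fold change was -0.08 (SE 0.14, 95% confidence interval -0.40 to 0.24); it was 0.003 when libraries were scaled by total counts only.

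Since Ptprc, Mpeg1 and Mrc1 differed to unequal extents, their counts were also divided within each library, which needs no scaling. Ptprc over Mrc1 was 0.276, 0.283 and 0.260 in WT and 0.513, 0.710 and 0.768 in Ocln-KO. Mpeg1 over Mrc1 was 0.777, 0.751 and 0.877 in WT and 1.09, 1.41 and 2.33 in Ocln-KO. In both ratios every Ocln-KO library was above every WT library. Cd163 over Mrc1 was 0.244, 0.509 and 0.263 in WT and 0.191, 0.145 and 0.176 in Ocln-KO, below WT in every library. Ptprc over Adgre1 was 1.52, 1.38 and 0.988 in WT and 2.68, 2.53 and 2.44 in Ocln-KO. These pairs were chosen after their values had been seen, and the ratios are descriptions of unequal differences with no test.

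The list of resident macrophage genes did not share the higher median of the members. Of 10 listed, 7 were tested, 1 was above 0 and 6 were below, with a median log2 fold change of -0.08; edgeR called 0, with 1 higher and 2 lower at an unadjusted p under 0.05, limma-voom called 0, and DESeq2 called Stab1 higher and Cd209f lower. Gas6, a ligand of MERTK and the most abundant in CPM, had 87.8, 92.7 and 103 CPM in WT against 80.8, 87.0 and 99.98 in Ocln-KO, which overlapped. The summed CPM of the list overlapped too, at 199, 195 and 191 in WT and 177, 183 and 224 in Ocln-KO. Of the markers, Pf4 was listed at 0 in all libraries, and Timd4 and Vsig4 were too low to test.

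Of 8 monocyte genes, 7 were tested, 6 were above 0 and 1 was higher. Ccr2, the chemokine receptor with which monocytes leave the marrow and enter tissue, had 15.6, 15.3 and 12.2 CPM in WT against 24.9, 28.5 and 49.9 in Ocln-KO. This gave a log2 fold change of 1.26 (SE 0.26, Benjamini-Hochberg-adjusted p = 0.0313 in edgeR's quasi-likelihood test), and it still passed without Ocln-KO replicate 3, at 0.89. Ly6c2, a surface marker of inflammatory monocytes with a near-identical neighbour gene, had 0.320, 0.146 and 0.188 CPM in WT against 0.654, 4.80 and 1.03 in Ocln-KO. All Ocln-KO libraries were above WT, most of all replicate 2, and its Benjamini-Hochberg-adjusted p was 0.0503 in edgeR's quasi-likelihood test. It was called by DESeq2, by edgeR with total counts or no count filter, and by edgeR without Ocln-KO replicate 1 or Ocln-KO replicate 3. Ace, the most abundant of the list in CPM, is also made by sperm and epididymal epithelium and ranged from 1121 to 1496 CPM in WT against 786 to 1592 in Ocln-KO.

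Of the receptors for apoptotic cells, 9 of 11 listed were tested and 1 was higher. Axl, a relative of Mertk, had 87.9, 85.1 and 83.1 CPM in WT against 104, 112 and 115 in Ocln-KO, a log2 fold change of 0.37 (SE 0.08, Benjamini-Hochberg-adjusted p = 0.0355 in edgeR's quasi-likelihood test). No gene of the list passed without Ocln-KO replicate 3. Pros1 was called higher by DESeq2, and by edgeR with total counts, with no count filter or without Ocln-KO replicate 1. Itgav, an integrin chain that binds bridged dying cells and the most abundant in CPM, ranged from 289 to 325 CPM in WT against 348 to 397 in Ocln-KO and did not pass. Of 12 genes of lipid and debris handling macrophages, all tested, 8 were above 0, and at an unadjusted p under 0.05, 3 were higher and 2 lower. DESeq2 called Cd36, which is in both lists, lower, and edgeR without Ocln-KO replicate 3 called Lpl lower. EdgeR without Ocln-KO replicate 1 called Gpnmb higher. With all libraries edgeR called 1 gene, which was higher. This was Apoe, also the most abundant in CPM, which carries lipid and is made by many cell types, with 379, 370 and 477 CPM in WT against 744, 547 and 632 in Ocln-KO and a log2 fold change of 0.65 (SE 0.15).

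The lysosomal and killing genes held 2 of the 8 calls, Ctss and Mpeg1, and all 4 were above 0. Ctss, at chr3:95526786-95556405, encodes cathepsin S, the protease that trims the invariant chain of MHC class II. It had 22.3, 19.4 and 23.1 CPM in WT against 32.1, 57.3 and 68.5 in Ocln-KO. Mpeg1, at chr19:12460770-12465285, encodes the pore-forming protein perforin-2. It had 42.4, 35.2 and 36.4 CPM in WT against 61.8, 76.7 and 140 in Ocln-KO. In both genes every Ocln-KO library was above the WT range, with Ocln-KO replicate 1 the closest to it. In edgeR's quasi-likelihood test (p-values Benjamini-Hochberg-adjusted), the log2 fold changes were 1.28 for Ctss (SE 0.25, adjusted p = 0.0280) and 1.29 for Mpeg1 (SE 0.28, adjusted p = 0.0351). They were 1.05 and 0.87 without Ocln-KO replicate 3, and both still passed.

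Cd68, a glycoprotein of macrophage lysosomes and a customary marker, had 5.88, 5.71 and 4.25 CPM in WT against 6.51, 11.4 and 11.6 in Ocln-KO. The genotypes did not overlap, but Ocln-KO replicate 1 was close to WT; only DESeq2, and edgeR with no count filter, called it with all libraries, and the log2 fold change was 0.90 (SE 0.26, Benjamini-Hochberg-adjusted p = 0.0703 in edgeR's quasi-likelihood test). Lyz2, the lysozyme of macrophages, had 70.0, 55.9 and 53.1 CPM in WT against 74.2, 67.0 and 163 in Ocln-KO. Its log2 fold change of 0.77 (SE 0.32) was 0.24 without Ocln-KO replicate 3 and passed in neither. Its neighbour Lyz1, which is nearly the same in sequence, had 55 to 88 counts a library against 1909 to 5518 for Lyz2, and how shared reads were counted is not given in the sources used here.

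Of the 3 NADPH oxidase members, 2 were higher. Cybb, at chrX:9435252-9487766, encodes the catalytic subunit gp91phox. It had 11.9, 10.4 and 11.6 CPM in WT against 15.98, 23.1 and 38.2 in Ocln-KO. Ncf1, at chr5:134220053-134229628, encodes the cytosolic organiser p47phox and had 5.50, 4.68 and 3.74 CPM in WT against 6.60, 9.97 and 13.01 in Ocln-KO. Neither gene overlapped between genotypes. In edgeR's quasi-likelihood test (p-values Benjamini-Hochberg-adjusted), the log2 fold changes were 1.19 for Cybb (SE 0.29, adjusted p = 0.0442) and 1.09 for Ncf1 (SE 0.28, adjusted p = 0.04996). Ncf1 was at the threshold: it did not pass when the mitochondrially encoded genes were left out of the scaling, an alternative chosen after seeing the data, or without Ocln-KO replicate 3, where its log2 fold change was 0.84, while Cybb still passed at 0.80. Limma-voom called neither Cybb nor Ncf1. Ncf4, encoding p40phox, ranged from 0.561 to 1.49 CPM in WT against 0.343 to 2.60 in Ocln-KO, and its log2 fold change of 0.85 had an SE of 0.70.

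The partners of the oxidase were not called. Of 7 listed, 6 were tested and 5 were above 0, with a median log2 fold change of 0.73; edgeR called 0, with 3 higher at an unadjusted p under 0.05, limma-voom called 0 and DESeq2 called 3. Rac1, which every cell uses and which was the most abundant in CPM, ranged from 176 to 196 CPM in WT against 166 to 184 in Ocln-KO. Without Rac1 the summed CPM of the list was 23.8, 21.7 and 18.8 in WT and 25.01, 34.9 and 49.1 in Ocln-KO, above WT in every Ocln-KO library.

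Among the actin-binding members Lcp1 was higher. Lcp1, at chr14:75131105-75230842, encodes L-plastin, an actin-bundling protein of leukocytes. It had 207, 210 and 187 CPM in WT against 254, 298 and 350 in Ocln-KO, every library above the WT range. The log2 fold change was 0.58 (SE 0.13, Benjamini-Hochberg-adjusted p = 0.0369 in edgeR's quasi-likelihood test) and 0.45 without Ocln-KO replicate 3, where it still passed. Coro1a, encoding the leukocyte actin regulator coronin 1A, ranged from 5.59 to 6.13 CPM in WT against 6.51 to 13.6 in Ocln-KO. Its log2 fold change of 0.82 (SE 0.26) did not pass in edgeR with all libraries and was called by DESeq2. Without Ocln-KO replicate 1, edgeR called Coro1a at 1.07. Aif1, encoding the macrophage protein IBA1, was listed at 0 in all 6 libraries. So were all 20 protein-coding genes within 100 kb of it on chromosome 17, among them genes that every cell uses such as Bag6, Csnk2b and Ddx39b, and nothing can be said of its expression here.

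The costimulatory members Cd83 and Cd86, which mark mature dendritic cells, did not differ beyond the spread between libraries. Cd83 ranged from 2.25 to 2.99 CPM in WT against 2.57 to 4.61 in Ocln-KO, and its log2 fold change of 0.28 (SE 0.31) turned to -0.05 without Ocln-KO replicate 3. Cd86 ranged from 1.72 to 3.10 CPM in WT against 2.18 to 3.16 in Ocln-KO, a log2 fold change of 0.19 (SE 0.32). The dendritic cell list gave 1 call: of 11 listed, 9 were tested, all 9 were above 0 at a median of 0.96 on the log2 scale, and Irf4 was higher in edgeR. Limma-voom called 0 of the list and DESeq2 called 3, Flt3, Zbtb46 and Irf4. Irf4, a factor of dendritic cells, macrophages and lymphocytes, had 1.47, 1.52 and 0.969 CPM in WT against 4.45, 3.48 and 10.6 in Ocln-KO. This was a log2 fold change of 2.22 (SE 0.46, Benjamini-Hochberg-adjusted p = 0.0314 in edgeR's quasi-likelihood test). It was 1.58 without Ocln-KO replicate 3, where Irf4 still passed. Zbtb46, the most abundant in CPM and a factor of classical dendritic cells, had 10.6, 11.6 and 10.3 CPM in WT against 14.2, 14.3 and 17.8 in Ocln-KO, without overlap.

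Of the genes that passed in the lists of other myeloid genes, Runx1, Bhlhe41, Maf, Irf8, Ikzf1, Clec12a, Lcp2, Vav1, Card9, Ccr2, Axl, Apoe and Irf4 shared the dependence of the members on single libraries. The same held for Alas2, Ltf and Cd5, described below. With any WT library left out none of these 16 passed edgeR's quasi-likelihood test at a Benjamini-Hochberg-adjusted p under 0.05. Without Ocln-KO replicate 2, Runx1, Ikzf1 and Irf4 passed.

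Levels were compared between genes as CPM per kb of exonic length, from GENCODE vM21 gene models. In WT, Lcp1 with 47.9 ± 3.05 and Lyz2 with 45.3 ± 6.90 CPM per kb (SD, n = 3) were the highest and lay within each other's spread. Mertk with 16.1 ± 2.37 and Ctss with 15.9 ± 1.44 CPM per kb followed, and also could not be ordered beyond their spread. Tyrobp, Mrc1, Mpeg1, Csf1r and Siglec1 came next on this scale, from 10.7 down to 5.86 CPM per kb, while Adgre1 with 3.14, Ptprc with 2.55 and Spi1 with 0.968 CPM per kb were lower. In Ocln-KO, Lyz2 with 77.1 ± 40.7 and Lcp1 with 71.4 ± 11.4 CPM per kb (SD, n = 3) were again the highest. Ptprc moved from rank 16 in WT to rank 12 and Cd163 from rank 13 to rank 23 of the 33 genes on the CPM per kb scale.

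**Figure D4:**
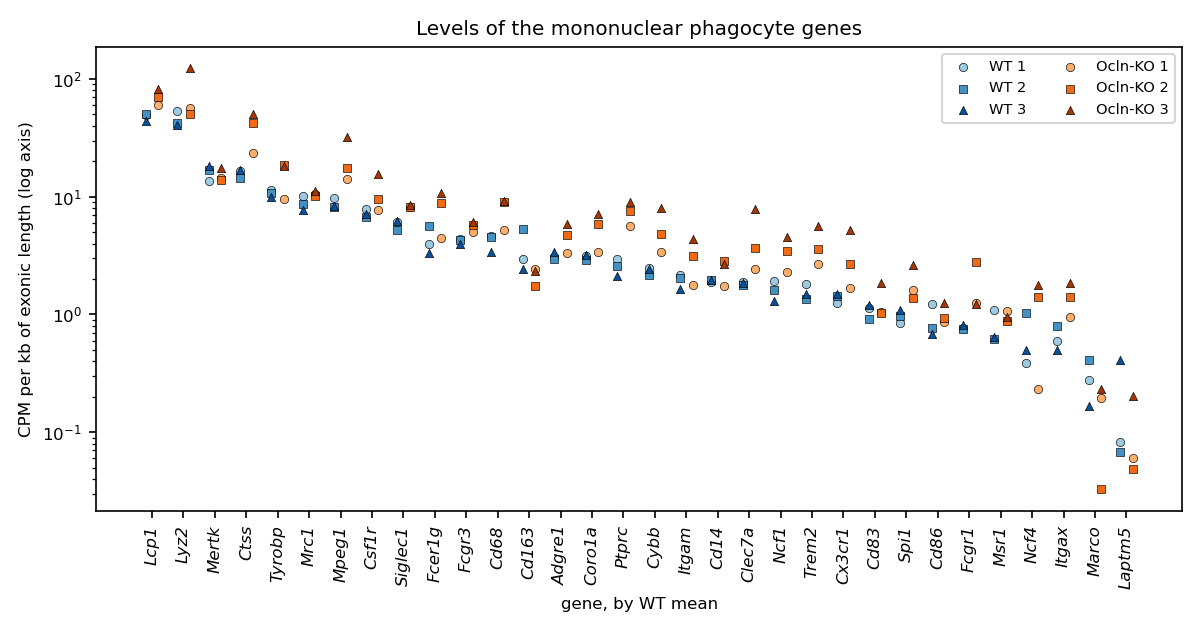
Level of each member with a count in each library, as CPM per kb of exonic length on a log axis, with the genes ordered by their WT mean; blue symbols are WT and orange symbols Ocln-KO libraries. Lcp1 and Lyz2 are the highest, Marco and Laptm5 the lowest, and Aif1, listed at 0, is not drawn.

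Markers of other cells moved together with the members in some libraries, and their part in the results was not tested. The summed CPM of 6 fibroblast genes, whose most abundant is Col1a1, was 2494, 2565 and 2742 in WT and 1959, 2713 and 5455 in Ocln-KO, with 0 genes called by edgeR (2 higher at an unadjusted p under 0.05) and 0 by limma-voom or DESeq2. Ocln-KO replicate 3, in which most members were highest, was thus also the highest in fibroblast genes. The summed CPM of 8 genes of spermatids and sperm, led by Odf1, was 374, 300 and 305 in WT. It was 413, 418 and 97.6 in Ocln-KO, lowest in replicate 3. With all libraries edgeR, limma-voom and DESeq2 each called 0, with 0 at an unadjusted p under 0.05. When Ocln-KO replicate 3 was left out, edgeR called Tnp1 higher, with 3 sperm genes higher at an unadjusted p under 0.05. Without Ocln-KO replicate 3, 6 of the 8 member calls remained.

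Genes of red blood cells went the other way from the members. The summed CPM of the 5 genes was 21.9, 49.5 and 31.3 in WT and 9.22, 13.2 and 6.03 in Ocln-KO, below WT in every library. The most abundant, Hbb-bs, a beta globin with near-identical relatives, had 8.97, 25.7 and 8.53 CPM in WT against 4.05, 5.86 and 3.10 in Ocln-KO. Alas2, the first enzyme of haem synthesis in red cells, was lower with a log2 fold change of -1.99 (SE 0.43, Benjamini-Hochberg-adjusted p = 0.0350 in edgeR's quasi-likelihood test). WT replicate 2, the highest in Hbb-bs, was also the highest in Cd163 and Fcgr2b.

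Markers of other leukocytes were mostly low. Of 11 neutrophil genes, 6 had at most 3 counts in every library, among them the defining Ly6g, Mpo and Elane, the last at 0 throughout. Only Ltf, which the epididymal epithelium also makes, and Mmp8 were tested, and Ltf was lower, with 117, 136 and 259 CPM in WT against 70.7, 75.9 and 66.3 in Ocln-KO. Without Ltf the summed CPM of the list was at most 1.32 in any library. Of 10 T cell genes, 7 were tested and 6 were above 0; the summed CPM was 6.41, 7.58 and 8.61 in WT and 7.47, 10.1 and 9.73 in Ocln-KO, and Cd5, the most abundant, was lower with 3.45, 3.60 and 4.28 CPM in WT against 1.56, 1.60 and 0.591 in Ocln-KO. Without Cd5 the summed CPM of the T cell list was 2.96, 3.98 and 4.33 in WT and 5.92, 8.47 and 9.14 in Ocln-KO, above WT in every library and highest in replicate 3, a ratio of 2.09. Cd5 was not called with total counts. EdgeR called Cd8a higher with no count filter, and Cd4 and Cd8a higher without Ocln-KO replicate 1. Ptprc, Coro1a and Lcp1 are expressed in lymphocytes as well as in phagocytes. The share of each cell type in their levels was not tested.

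**Figure D5:**
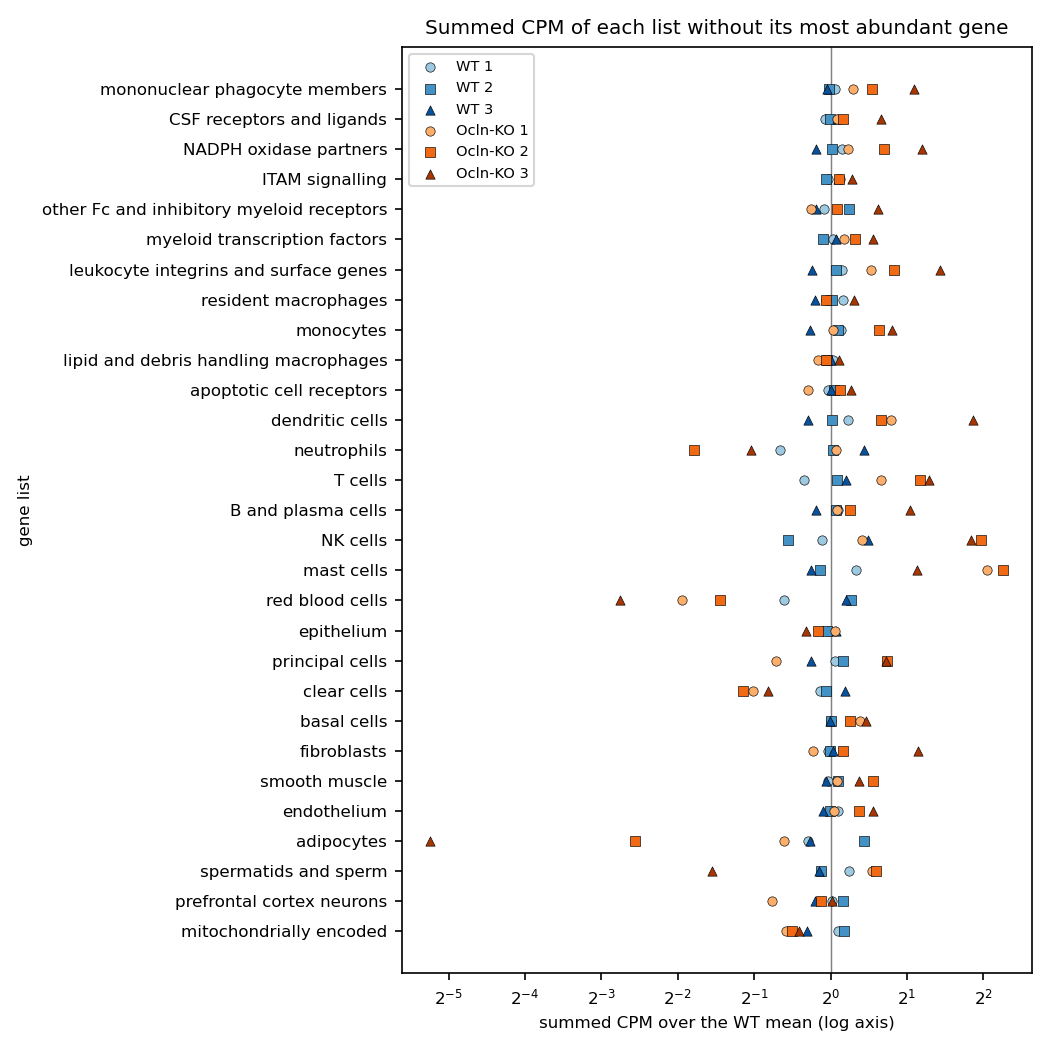
Summed CPM of each gene list without its most abundant gene, in each library, divided by the mean of the 3 WT libraries (log axis); blue symbols are WT and orange symbols Ocln-KO libraries. The members and the leukocyte surface genes lie above 1 in every Ocln-KO library and highest in replicate 3. The same holds for several other lists, among them the dendritic cell, T cell, basal cell and endothelial genes. In the Ocln-KO libraries the red blood cell genes lie below 1, and the resident macrophage genes lie on both sides of 1.

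These values come from 3 libraries per genotype of a whole organ, and the calls of single members depended on which libraries were compared, while the direction of most members did not. Neither cell numbers nor proteins were measured in these counts. The knockout is present in every tissue, and whether the differences arise in the epididymis was not tested. Segments of the epididymis were not separated, and Gpx5 and sperm genes varied widely between the Ocln-KO libraries, so differences in dissection cannot be told apart from differences of genotype. Aif1 and Laptm5 could not be tested.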

How the data were processed

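Whole-epididymis total RNA was depleted of rRNA and sequenced as paired ends, per the study's methods. The authors aligned reads to GRCm38 with HISAT2 2.0.4 and deposited the raw count of each gene from HTSeq, without normalization; the strand setting and the treatment of shared reads are not given in the sources used here. The 6 columns were matched to samples by title. In R 4.3.3, edgeR 4.0.16 was run as follows: filterByExpr by genotype, TMM factors, glmQLFit and glmQLFTest over all 19691 genes kept, and Benjamini-Hochberg adjustment over them; a call is an adjusted p under 0.05. The SE was obtained from F and the fold change, and 95% intervals use the t quantile at the degrees of freedom of each test. An exact permutation of 3 libraries against 3 cannot give a two-sided p under 0.1. Alternatives were DESeq2 1.42.0, limma-voom (limma 3.58.1), RLE factors, total counts, TMM without the 20 most abundant genes, no filter, a stricter filter of 10 counts per library, the replicate number as block, a 2-fold threshold, each library left out and, chosen after seeing the data, scaling without mitochondrially encoded genes. The fits were tested on simulated counts. Python 3.11.15 was used for lengths, ratios, promoters and plots. The members and the gene lists were chosen with earlier results of these data known. Values in every library are given for called members, for Adgre1, Csf1r, Cd68, Spi1, Ptprc and Itgam, and for the 3 highest and 3 lowest fold changes. Of the other lists, they are given for some called genes and some most abundant genes, with ranges or no values for the rest. Other values shown by library were chosen after they were seen. Protein sequences were not used here.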

Additional observations from a re-analysis of the deposited data

How the results depend on the processing

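Where edgeR's quasi-likelihood test called 8 members higher, DESeq2 called these and 7 more, 15 in all, and limma-voom 5 of the 8; the cause was not tested. With the replicate number as a block, 0 members passed, where 16 were higher at an unadjusted p under 0.05; the block leaves fewer degrees of freedom and called 10 genes higher and 31 lower in all. Deviations of WT and Ocln-KO libraries with the same number were correlated at -0.0598, -0.0180 and -0.0360. Those with different numbers were correlated between -0.0834 and 0.117. With 3 libraries per genotype this cannot decide whether the numbers pair the samples. With each library left out in turn, members higher ranged from 0 to 18; fewer samples were compared. RLE factors, TMM without the 20 most abundant genes, and at least 10 counts in every library gave the same 8. No filter gave 12, total counts 9, scaling without mitochondrially encoded genes 7 and the 2-fold threshold 6. The share of all tested genes called higher, 3.91% before these changes, was 2.94% with no filter and 5.96% with total counts. The log2 fold change of Mertk, -0.08, reversed to 0.00308 with total counts and to 0.0130 without WT replicate 3 (range -0.20 to 0.0130 with a library left out), and that of Cd83, 0.28, reversed to -0.0504 without Ocln-KO replicate 3 (range -0.0504 to 0.43), none of them called. No member was lower under any alternative, with 0 or 1 lower at an unadjusted p under 0.05. Total counts moved the median of all tested genes from 0.01 to 0.09 and their calls from 770 higher and 992 lower to 1174 higher and 674 lower. Ocln and the median of the members kept their direction throughout.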

Other observations

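Rarer leukocytes gave 1 or 2 calls per list at low levels. None of these calls, Cpa3, Cma1, Jchain and Klrb1c, passed in edgeR with any WT library left out. With a library left out, Cpa3 passed only without Ocln-KO replicate 3. Of 8 mast cell genes, 4 were tested and 2 were higher: the proteases Cpa3, with 0.614, 0.381 and 0.135 CPM in WT against 2.74, 2.70 and 1.30 in Ocln-KO, and Cma1, with 0.187, 0.264 and 0.188 CPM in WT against 1.18, 1.22 and 0.887 in Ocln-KO. Unlike most phagocyte genes, both were lowest in replicate 3 among the Ocln-KO libraries. The most abundant of the list, Kit, is also found in other cells and had 16.3, 16.6 and 18.1 CPM in WT against 14.4, 12.9 and 11.4 in Ocln-KO; the summed CPM without it was 1.79, 1.29 and 1.18 in WT and 5.86, 6.80 and 3.10 in Ocln-KO. Of 8 genes of B and plasma cells, 5 were tested and Jchain, the joining chain of secreted antibodies and the most abundant, was higher, with 1.496, 1.43 and 0.995 CPM in WT against 6.42, 4.17 and 6.89 in Ocln-KO. Of 7 NK cell genes, 4 were tested and Klrb1c was higher, with 0.240, 0.176 and 0.457 CPM in WT against 0.997, 2.38 and 2.07 in Ocln-KO; Klrd1 was the most abundant.

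In the epithelium the calls fell in both directions. Of 6 tested clear cell genes all were below 0 and 4 were lower. These were the proton pump subunits Atp6v0d2, Atp6v0a4 and Atp6v1b1 and the factor Foxi1. Atp6v1b1 was not called by limma-voom, with total counts or with any library left out. Without Ocln-KO replicate 3, Atp6v0d2, Atp6v0a4, Foxi1 and Car2 were lower. The summed CPM of the list, led by Car2, was 222, 188 and 267 in WT and 92.4, 105 and 58.7 in Ocln-KO. Of 9 tested principal cell genes, Gpx5 was higher, with 54.4, 172 and 26.3 CPM in WT against 256, 7258 and 10031 in Ocln-KO, and Aqp9 was lower; Crisp1 was the most abundant. Of 7 general epithelial genes, led by Krt18, Krt19 and Cldn4 were higher, and of 4 basal cell genes, led by Itga6, Krt14 was higher. In smooth muscle Myh11, the most abundant of 5 genes, was higher. Among 5 endothelial genes, led by Kdr, 4 adipocyte genes, led by Adipoq, and 4 tested neuronal genes, led by Syt1, edgeR called 0, with 1 higher and 1 lower, 2 lower, and 1 lower at an unadjusted p under 0.05; limma-voom also called 0, and DESeq2 called 1, the neuronal gene Gad1, lower. Of 9 mitochondrially encoded genes, led by COX1, 4 were lower, and their summed CPM was 25525, 26494 and 21157 in WT and 14535, 16181 and 13397 in Ocln-KO. Of the genes called by edgeR in these epithelial, muscle and mitochondrial lists, only Cldn4 passed with a WT library left out. It did so without WT replicate 2 and without WT replicate 3.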
